A study of Rattus norvegicus with 22 samples.

Results

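A set of 8 genes of the endocannabinoid system was described in RNA-seq counts from the nucleus accumbens (NAc) of rats that drank ethanol (EtOH). They were chosen by exact gene symbol, as the cannabinoid receptor Cnr1 and the enzymes that make and break down its lipid ligands, which are Dagla, Daglb, Mgll, Abhd6, Abhd12, Napepld and Faah. All 8 symbols were among the 17310 genes listed in the files. Reads were counted for 7 of them, and 6 were abundant enough to be tested across all genes in each experiment.

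Endocannabinoids are lipid messengers that neurons make on demand from membrane lipids. They travel backwards across the synapse to the CB1 receptor, the product of Cnr1, on axon terminals, where they reduce transmitter release. The diacylglycerol lipases (Dagla, Daglb) make 2-arachidonoylglycerol (2-AG), and monoacylglycerol lipase (Mgll) and the alpha/beta hydrolases Abhd6 and Abhd12 hydrolyse it. The phospholipase Napepld makes N-acylethanolamines such as anandamide, and the amide hydrolase Faah degrades them. In the striatum, of which the NAc is the ventral part, CB1 is carried by projection neurons, some interneurons and the terminals of cortical axons.

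The animals were adult male Wistar rats of 2 experiments, and each library held NAc RNA, core and shell together, from a single rat. In experiment 1, 5 rats with free access to EtOH solution and water were compared with 5 rats that had water alone. In experiment 2, 6 rats given EtOH by gavage were compared with 6 given water by gavage. All 12 rats of experiment 2 also drank EtOH voluntarily before and after the gavage period, so its control group was not free of EtOH and the contrast is that of the gavage. Experiment 1 used libraries that do not keep the strand and experiment 2 used strand-specific libraries, and each was analysed on its own. Values are therefore compared within an experiment only. No gene lengths were used, so levels are not compared between genes.

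Reads assigned to genes numbered 2962291 to 5247386 per library in experiment 1 and 6713617 to 8765472 in experiment 2. Reads falling outside annotated genes, as a share of these plus the assigned reads, were 48.4% to 51.1% in experiment 1. The share ran from 46.1% to 58.0% in experiment 2, where the first principal component held 73.6% of the variance between libraries against 25.9% in experiment 1. The 4 libraries with the highest share in experiment 2, at 52.8% to 58.0%, were water gavage rats 1 and 5 and EtOH gavage rats 1 and 2. Of 11 symbols marking striatal projection neurons, 10 were listed, none of them at 0 throughout an experiment. Their summed level overlapped between groups in both experiments. The summed level of 4 neuroblast markers was 174 to 231 CPM (counts scaled to library size) in water rats and 231.8 to 329 CPM in EtOH rats of experiment 1. Bulk tissue was measured, so fewer cells of a type and less RNA per cell cannot be told apart.

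None of the 7 genes with reads was called different between groups in either experiment, and Faah, which had no reads, could not be compared. With edgeR's quasi-likelihood test and an adjusted p under 0.05, 0 of 6 tested endocannabinoid genes were called in experiment 1 and 0 of 6 in experiment 2, where the background over the 8655 genes tested was 0% in each. At an unadjusted p under 0.05 the count was again 0 of 6 in both experiments, against 5.58% of all tested genes in experiment 1 and 1.33% in experiment 2. DESeq2 also put 0 of 6 under that limit in each experiment. No endocannabinoid gene had groups whose normalized counts did not overlap, against 0.843% of all tested genes in experiment 1 and 0.0116% in experiment 2.

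Differences were small in experiment 1 and loosely estimated in experiment 2. The median log2 fold change of the 6 tested genes was 0.0060 in experiment 1, with a range of −0.056 to 0.093, and the middle 50% of all tested genes lay between −0.072 and 0.075. The median of experiment 2 was −0.18, with a range of −0.63 to −0.026, and the middle 50% of all genes lay between −0.24 and 0.16. All 6 fitted values of experiment 2 were below 0, though that of Mgll moved above 0 under DESeq2, DESeq2 size factors or no filter on low counts. Those of Cnr1, Dagla, Daglb and Abhd12 also moved above 0 under other alternatives, which are given below.

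**Figure D1:**
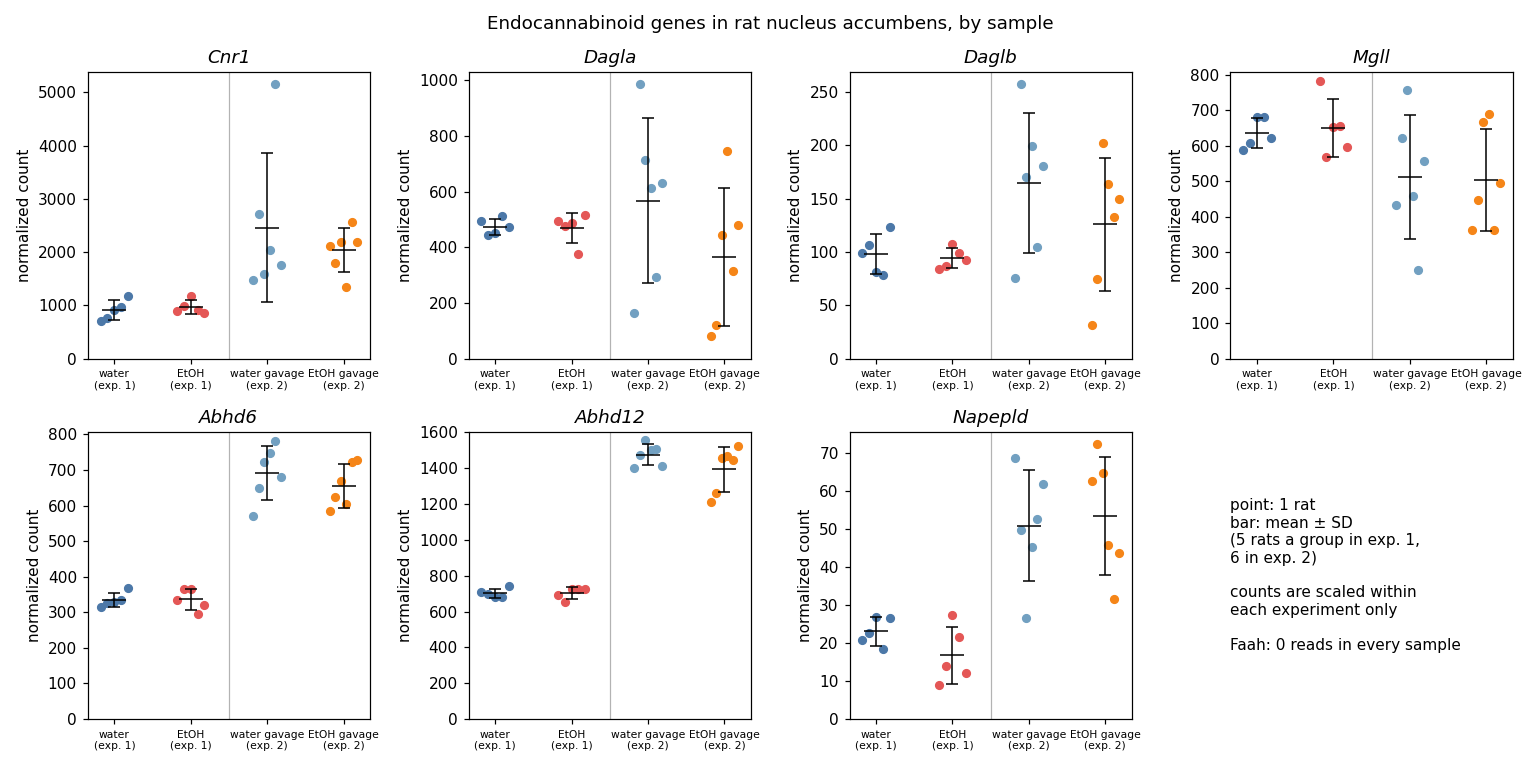
Normalized counts of the 7 endocannabinoid genes with reads, 1 point per rat, with the mean and SD of each group as a bar (5 rats a group in experiment 1, 6 in experiment 2). The groups of every gene overlap, 4 rats of experiment 2 lie below the other 8 for Dagla and for Daglb, and 1 water gavage rat stands above all others for Cnr1.

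**Figure D2:**
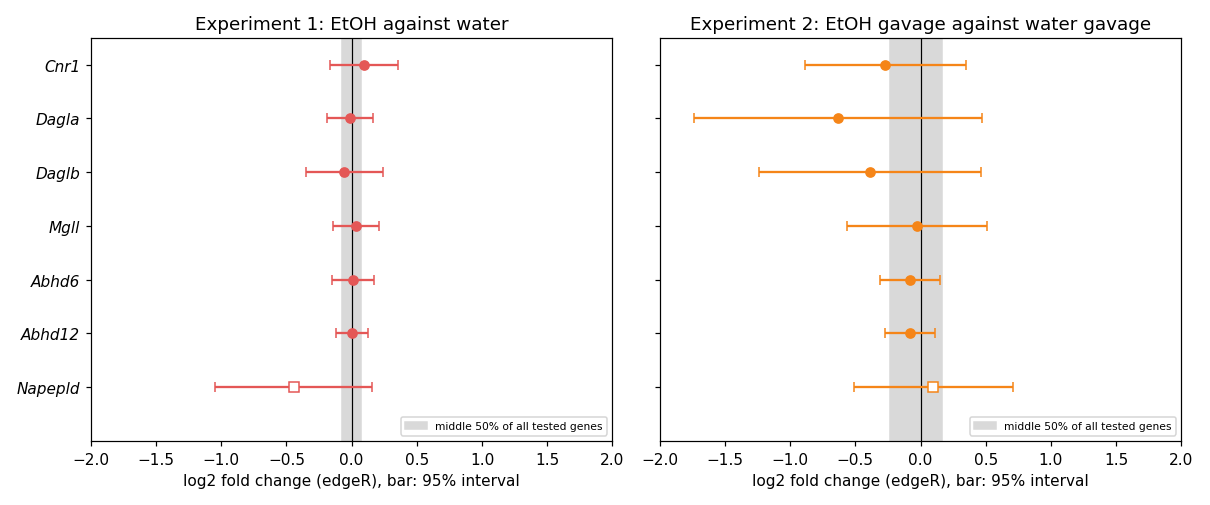
Log2 fold change of each gene, EtOH against water on the left and EtOH gavage against water gavage on the right, with the 95% interval as a bar. Filled circles are genes past the filter on low counts, the open square is Napepld from the unfiltered fit, and the grey band is the middle 50% of all tested genes. Every interval includes 0, and those of Dagla and Daglb in experiment 2 are the widest.

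Cnr1 was not called different between EtOH and water rats, and it was among the more variable genes in both experiments. Its normalized counts, which are reads scaled to the mean library size of the experiment, were 706, 773, 920.5, 976 and 1179 in water rats 1 to 5. The EtOH rats had 897, 999, 1180.5, 922 and 866. The highest rat of each group nearly coincided, and the 2 lowest values belonged to water rats. The group means were 911 ± 185 (SD, n = 5) and 973 ± 126 (SD, n = 5). The fold was 1.07 with a 95% interval of 0.891 to 1.28 (log2 0.09, SE 0.12), and edgeR's adjusted p was 0.971.

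The Cnr1 counts of the water gavage rats in experiment 2 were 1484, 2712, 1582, 2033, 5159.9 and 1765. Those of the EtOH gavage rats were 2118, 1803, 2197, 1348, 2561 and 2186. EtOH gavage rat 4 was the lowest of all, the other 5 EtOH gavage rats lay inside the range of the controls, and 1 control, water gavage rat 5, held the highest value by far. The means were 2456 ± 1396 (SD, n = 6) and 2036 ± 414 (SD, n = 6), while the medians of 1899 and 2152 were ordered the other way. The fitted log2 fold change of −0.27 (SE 0.29, 95% interval −0.89 to 0.35, edgeR adjusted p = 0.683) turned to 0.086 (SE 0.19, adjusted p = 0.786) without that rat. Water gavage rat 5 also had the highest summed level of striatal projection neuron markers, 8811 CPM against at most 6413 CPM elsewhere, and of oligodendrocyte markers, 15174 against at most 11698 CPM. Its 5 cortical glutamatergic neuron markers summed to 5.56 CPM, the lowest of experiment 2. The part of tissue makeup in its Cnr1 count was not tested.

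The spread of Cnr1 between rats of a group had a coefficient of variation (CV) of 16.5% in experiment 1, higher than in 78.7% of all tested genes, and 40.3% in experiment 2, higher than in 84.4%. The genes whose deviations from the group means most resembled those of Cnr1, among 8176 genes tested in both experiments, differed between the experiments. In experiment 1 they included Bsn, a scaffold protein of the presynaptic active zone (Pearson's r = 0.98 over 10 rats), and Mpped1 (r = 0.96). Over the 12 rats of experiment 2 Bsn had r = −0.040 and Mpped1 r = −0.066. Without water gavage rat 5 these values were 0.52 and 0.29. The closest genes of experiment 2 were Cdr2 (r = 0.92), the pyruvate dehydrogenase phosphatase Pdp1 (r = 0.84) and Rgs4, a regulator of G protein signalling (r = 0.84), with r = −0.075, 0.21 and 0.33 in experiment 1. Without water gavage rat 5 their r in experiment 2 fell to 0.73, 0.49 and 0.64. All are correlations chosen as the highest of many, so they are given as a description.

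Dagla, the lipase that makes most 2-AG in the adult brain, was level between the groups of experiment 1. The water rats had normalized counts of 495, 444, 451, 512 and 472 and the EtOH rats 495, 476, 489, 376 and 515. EtOH rat 4 was the lowest of all, and the other rats of both groups fell within one range. The means were 475 ± 28.8 (SD, n = 5) and 470.2 ± 54.7 (SD, n = 5), a fold of 0.992 with a 95% interval of 0.876 to 1.12 (edgeR adjusted p = 0.995).

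In experiment 2, Dagla varied by 11.8-fold between the lowest and the highest rat. The water gavage rats had 164, 985, 713, 614, 294 and 631 normalized counts and the EtOH gavage rats 83.6, 121, 443, 746, 314 and 480.5. Low values occurred in both groups, in water gavage rats 1 and 5 and EtOH gavage rats 1 and 2. The means of 567 ± 296 (SD, n = 6) and 365 ± 247 (SD, n = 6) gave a log2 fold change of −0.63 (SE 0.51), a fold of 0.644 with a 95% interval of 0.300 to 1.38. Without EtOH gavage rat 4 the log2 value was −0.97 and without water gavage rat 2 it was −0.40. That difference did not pass the test (edgeR adjusted p = 0.675), and an exact permutation test of log2 CPM gave a two-sided p of 0.240, where the smallest possible p was 0.00216.

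Daglb, the second diacylglycerol lipase, had few reads in experiment 1, with 99.0, 107, 81.0, 78.7 and 124 normalized counts in water rats and 84.5, 87.0, 107, 99.6 and 93.0 in EtOH rats. The EtOH rats lay inside the range of the water rats. The means were 97.8 ± 18.7 (SD, n = 5) and 94.3 ± 9.29 (SD, n = 5), and the log2 fold change was −0.056 (SE 0.14, 95% interval −0.35 to 0.24, edgeR adjusted p = 0.989). Daglb in experiment 2 was wider, and the water gavage rats had 75.9, 258, 171, 199, 105 and 181 and the EtOH gavage rats 31.9, 74.8, 202, 164, 133 and 149. The same 4 rats as for Dagla were the lowest. The means of 165 ± 65.7 and 126 ± 62.1 (SD, n = 6 each) gave a log2 fold change of −0.39 (SE 0.39, 95% interval −1.24 to 0.46, edgeR adjusted p = 0.679), which was −0.18 without EtOH gavage rat 1.

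The 4 rats with low Dagla and Daglb in experiment 2 were those with the largest share of reads outside annotated genes. Dagla ranged from 83.6 to 294 normalized counts in them and from 314 to 985 in the other 8 rats. For Daglb the ranges were 31.9 to 105 and 133 to 258. With group means removed, the correlation of log2 CPM with that share over 12 rats was r = −0.95 for Dagla (Spearman's rho = −0.84, permutation p = 3.0e-05, adjusted p = 0.00042 over 14 relations, rho adjusted p = 0.026). Daglb had r = −0.91 (rho = −0.77, permutation p = 0.00040, adjusted p = 0.0028, rho adjusted p = 0.026). Leaving out the 2 rats farthest from the median of the share gave r = −0.92 and −0.88. Within the 8 rats of lower share, r was −0.54 for Dagla (adjusted permutation p = 0.770) and −0.28 for Daglb (adjusted permutation p = 0.861), so neither relation passed the test there.

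The relation to this share was widespread in experiment 2, where 23.6% of all tested genes had r below −0.8 and 48.9% had r beyond 0.8 in either direction, against 2.25% in experiment 1. The summed levels of cortical glutamatergic neuron markers and of interneuron markers were also lower in the 4 rats, and single markers were not compared. All 5 cortical markers were listed, and their sum was 5.56 to 45.1 CPM in the 4 rats and 84.7 to 540.3 CPM in the other 8. The sum of 5 interneuron markers (Cck, Pvalb, Sst, Vip and Npy, of which 1 was listed at 0 throughout) was 18.6 to 36.2 CPM in the 4 rats and 50.3 to 120.3 CPM in the others. The astrocyte sum was 3622 to 5018 CPM in the 4 rats and 2752 to 3913 CPM in the others. The part of tissue makeup or of the library in the spread of Dagla and Daglb was not tested. Without the 4 rats, Dagla had a log2 fold change of −0.55 (SE 0.23) that was under an unadjusted p of 0.05 and did not pass the adjustment over all genes in edgeR (adjusted p = 0.460), in a comparison of 4 against 4 rats where 916 of all tested genes were under an unadjusted p of 0.05. Daglb had −0.29 (SE 0.18, adjusted p = 0.496). With the share as a covariate both signs turned, to 0.14 (SE 0.18) for Dagla and 0.18 (SE 0.20) for Daglb.

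**Figure D3:**
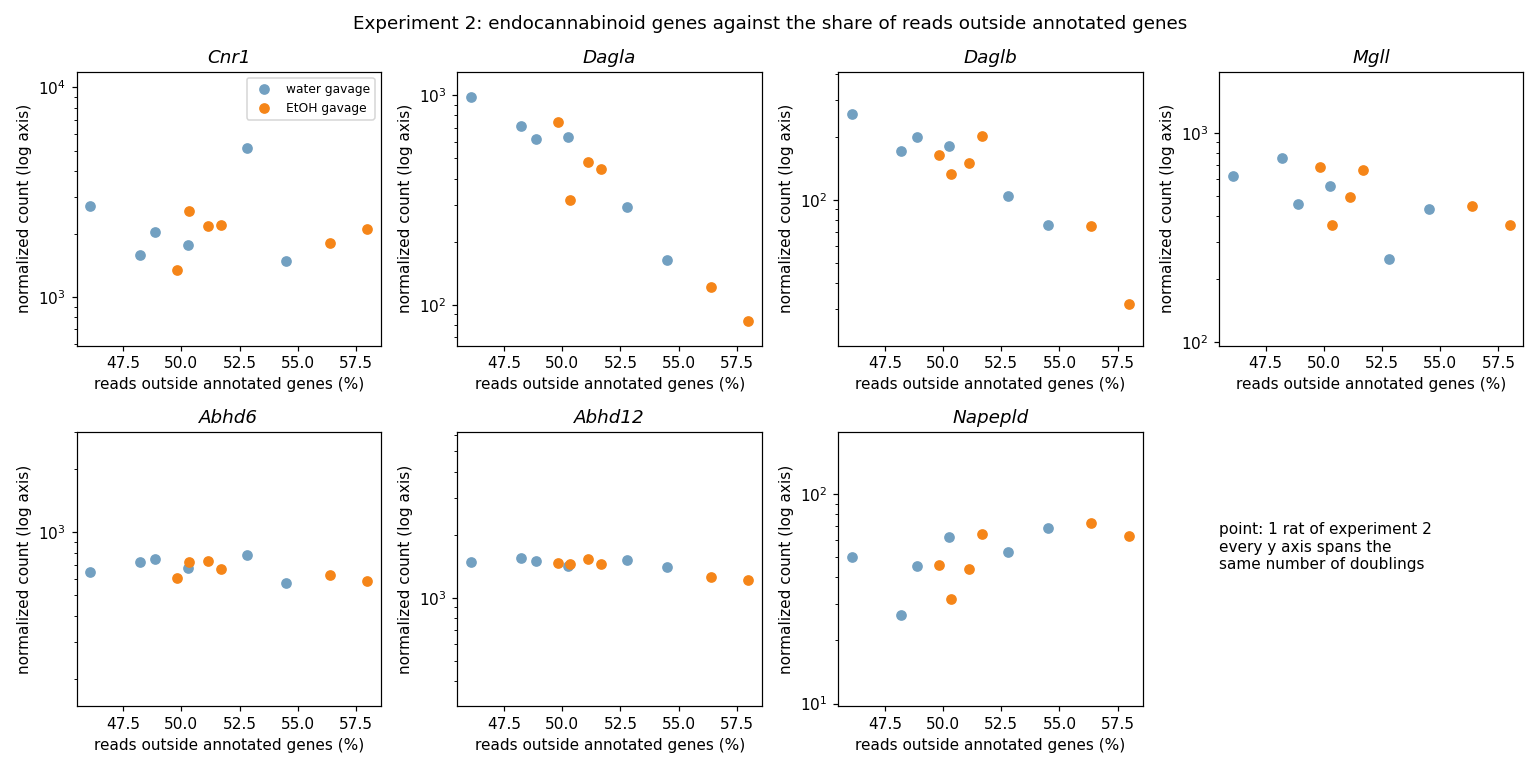
Normalized counts of 7 genes (log axis, spanning the same number of doublings in each panel) against the share of reads outside annotated genes in percent, 1 point per rat of experiment 2. Dagla and Daglb fall steeply as the share rises from 46.1% to 58.0% in rats of both groups, and Abhd6 and Abhd12 stay nearly level.

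Of the other 5 genes in experiment 2, none passed by Pearson's r and Napepld passed by rank. What fraction of all tested genes passes these tests was not computed. Their median absolute r with the share was 0.79 in experiment 2, above that of each of these 5 genes, and 0.31 in experiment 1. Napepld rose with the share by rank (rho = 0.78, adjusted permutation p = 0.026), with r = 0.67 (permutation p = 0.024, adjusted p = 0.084). Mgll had r = −0.57 (adjusted permutation p = 0.136), Abhd12 r = −0.59 (adjusted permutation p = 0.136), Abhd6 r = −0.22 and Cnr1 r = 0.11. In experiment 1, where the share spanned a narrow range, 1 of 7 genes passed, Abhd6 with r = −0.79 over 10 rats (rho = −0.82, permutation p = 0.0075, adjusted p = 0.035, and r = −0.72 without the 2 rats farthest from the median).

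Mgll, which performs most 2-AG hydrolysis in brain, was not called different in either experiment. Water rats had 589, 608, 679.8, 679.8 and 622 normalized counts and EtOH rats 781, 569, 652, 655 and 598. EtOH rat 1 was the highest and EtOH rat 2 the lowest, so the treated group enclosed the controls. The fold was 1.02 with a 95% interval of 0.905 to 1.15 (edgeR adjusted p = 0.990). In experiment 2 the water gavage rats had 432, 622, 757, 459.8, 249 and 558 and the EtOH gavage rats 363, 447, 666, 689.5, 363 and 496. Here the controls enclosed the treated rats, with water gavage rat 5 the lowest. The means were 513 ± 174 and 504 ± 144 (SD, n = 6 each), a fold of 0.982 with a 95% interval of 0.676 to 1.43 (edgeR adjusted p = 0.962).

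Abhd6 encodes a postsynaptic 2-AG hydrolase, and its counts were tightly grouped. They were 314, 327, 329.7, 335 and 368 in water rats and 335, 365, 366, 297 and 321 in EtOH rats, a fold of 1.01 with a 95% interval of 0.899 to 1.13 (edgeR adjusted p = 0.995). The water gavage rats had 572, 649.8, 723, 747, 782 and 680.0 and the EtOH gavage rats 584, 624.9, 669.6, 604, 722 and 729. The ranges nearly coincided, and the fold was 0.947 with a 95% interval of 0.808 to 1.11 (edgeR adjusted p = 0.722). The CV within groups was 7.41% in experiment 1 and 10.1% in experiment 2, where it was higher than in only 6.11% of all tested genes.

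Abhd12, a hydrolase that also acts on lysophosphatidylserine, was the steadiest of the 6 tested genes. Its normalized counts were 710.02, 696, 682, 681 and 741 in water rats and 692, 654, 726, 724 and 724 in EtOH rats. The fold was 1.003 with a 95% interval of 0.922 to 1.09 (edgeR adjusted p = 0.996), the narrowest interval of the genes tested here. The water gavage rats had 1402, 1475, 1556, 1500.4, 1507 and 1412 and the EtOH gavage rats 1211, 1263, 1456, 1466, 1443 and 1525. EtOH gavage rats 1 and 2 lay below all controls and the other 4 inside their range. The means were 1476 ± 59.4 and 1394 ± 126 (SD, n = 6 each), a fold of 0.945 with a 95% interval of 0.828 to 1.08 (edgeR adjusted p = 0.684). The CV within groups was 3.97% in experiment 1, higher than in 1.89% of tested genes, and 6.46% in experiment 2, higher than in 0.809%. In experiment 1 the CV was 8.83% for Dagla and 14.6% for Daglb, beside a median of 10.96% over all tested genes. In experiment 2 it was 58.4% for Dagla, higher than in 96.0% of tested genes, and 44.0% for Daglb, beside a median of 23.4%.

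Upstream sequences in RefSeq were at hand for 6 of the 8 genes, without Cnr1 and Dagla. Those of Daglb and Abhd12 are shown because they were the most and the least variable of these genes between the rats of experiment 2, among those tested. Each is the 250 bases before the gene start on the strand of the gene, 5′ to 3′, in build GRCr8, which is not the build of the counts. Capitals mark the GC box GGGCGG on either strand (CCGCCC when read on the other), the letters bound by Sp-family factors. Daglb lies at chr12:16215759-16216008 on the minus strand and Abhd12 at chr3:160179930-160180179 on the minus strand.
Daglb: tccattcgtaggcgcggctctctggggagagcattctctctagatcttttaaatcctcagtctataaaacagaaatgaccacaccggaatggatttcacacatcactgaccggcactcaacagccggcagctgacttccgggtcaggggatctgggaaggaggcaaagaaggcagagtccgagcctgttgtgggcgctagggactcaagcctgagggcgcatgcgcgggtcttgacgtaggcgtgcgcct
Abhd12: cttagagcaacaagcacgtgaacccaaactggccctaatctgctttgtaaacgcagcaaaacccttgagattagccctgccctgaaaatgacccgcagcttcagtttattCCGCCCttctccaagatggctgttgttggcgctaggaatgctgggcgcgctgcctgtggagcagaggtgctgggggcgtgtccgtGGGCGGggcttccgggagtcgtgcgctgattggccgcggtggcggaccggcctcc

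The Daglb window held 0 GC boxes and that of Abhd12 held 2. Among the other genes there were 3 for Mgll, 8 for Napepld, 1 for Faah and 0 for Abhd6, and 30.5% of 33469 windows of the same length held at least 1. Abhd6, which like Abhd12 was steady between rats, shared the absence of the box with Daglb. A relation between the box and the spread between rats was not tested. The GC content was 56.4% for Daglb and 60.4% for Abhd12, against a median of 51.2% over all windows. A match to these letters is a description of the window, and binding was not measured.

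Napepld, the enzyme of N-acylethanolamine synthesis, was below the filter on low counts in both experiments, so its values come from a fit without that filter. It had 7 to 37 reads per library in experiment 1 and 26 to 73 in experiment 2. The normalized counts were 20.8, 22.6, 27.0, 18.4 and 26.6 in water rats and 9.10, 14.004, 27.5, 21.6 and 12.2 in EtOH rats. Of the EtOH rats, 3 lay below every water rat and 1 above. The means of 23.1 ± 3.72 and 16.9 ± 7.50 (SD, n = 5 each) gave a log2 fold change of −0.45 (SE 0.29, 95% interval −1.05 to 0.16), which did not pass the test (edgeR adjusted p = 0.868, exact two-sided permutation p = 0.127 with 0.00794 as the smallest possible). In experiment 2 the water gavage rats had 68.8, 49.9, 26.6, 45.4, 52.9 and 62.0 and the EtOH gavage rats 62.7, 72.5, 64.7, 46.0, 31.5 and 43.7. The groups overlapped almost entirely, with a log2 fold change of 0.097 (SE 0.29, 95% interval −0.51 to 0.71, edgeR adjusted p = 0.893).

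Faah was listed with 0 reads in all 22 libraries. A count of 0 allows up to 3 reads, which is 0.572 to 1.01 CPM in experiment 1 and 0.342 to 0.447 CPM in experiment 2, covering counting error only. It was 1 of 2853 genes listed at 0 in every library. Reads aligned to several places were kept out of the gene counts, and their part in the 0 for Faah was not tested. The part of the annotation, whose release is not given, was not tested either. The 0 is therefore not read as absence of Faah RNA. No comparison and no ratio with Faah could be made, so the planned ratio of Napepld to Faah was left out.

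Ratios between genes within a library do not depend on how libraries are scaled. The log2 ratio of Dagla to Mgll, 2-AG synthesis to hydrolysis, was −0.25, −0.45, −0.59, −0.41 and −0.40 in water rats and −0.66, −0.26, −0.41, −0.80 and −0.21 in EtOH rats. The means were −0.42 ± 0.12 and −0.47 ± 0.25 (SD, n = 5 each), a difference of −0.048 (exact permutation p = 0.667, adjusted p = 0.889 over 4 ratio tests). In experiment 2 it was −1.39, 0.66, −0.09, 0.42, 0.23 and 0.18 in water gavage rats and −2.09, −1.87, −0.58, 0.11, −0.20 and −0.05 in EtOH gavage rats. Water gavage rat 1 and EtOH gavage rats 1 and 2 stood well below the rest, and all 3 were among the 4 rats with the largest share of reads outside annotated genes. The difference of −0.78 did not pass the test (exact permutation p = 0.147, adjusted p = 0.563). Without those 4 rats it was −0.47 (unadjusted exact permutation p = 0.086). Without water gavage rat 1 alone it was −1.06 (unadjusted exact permutation p = 0.030).

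The ratio of Dagla to Daglb separates the lipases from each other. Its mean log2 value was 2.27 ± 0.31 in water rats and 2.29 ± 0.26 in EtOH rats (SD, n = 5 each), a difference of 0.018 (exact permutation p = 0.952, adjusted p = 0.952). In experiment 2 it was 1.66 ± 0.35 in water gavage rats and 1.37 ± 0.51 in EtOH gavage rats (SD, n = 6 each), a difference of −0.29 (exact permutation p = 0.281, adjusted p = 0.563). It ranged from 1.09 to 2.05 and from 0.68 to 2.17, so the groups overlapped.

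**Figure D4:**
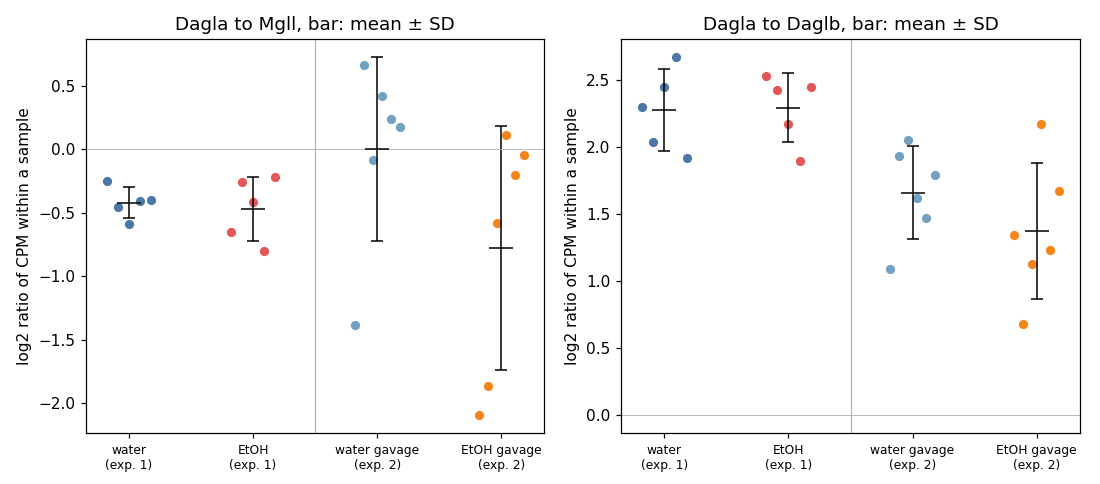
Log2 ratio of CPM within a library, Dagla to Mgll on the left and Dagla to Daglb on the right, 1 point per rat with the mean and SD of each group as a bar. The groups overlap in both experiments, and 3 rats of experiment 2 lie below −1 for Dagla to Mgll.

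The 7 genes with reads gave 21 pairs in each experiment, and 1 of them passed a permutation test within groups in experiment 2. How many pairs among all tested genes would pass was not computed. Of all tested genes in experiment 2, 48.9% tracked the percentage of outside-gene reads at r beyond 0.8 in either direction. A high r in that experiment is therefore not read as particular to a pair. Dagla and Daglb rose and fell together over the 12 rats of experiment 2 (r = 0.93, rho = 0.89, permutation p = 0.00014, adjusted p = 0.0029, rho adjusted p = 0.015), and r was 0.92 without the 2 rats farthest from the median of Dagla. In experiment 1 their r was −0.24 (adjusted permutation p = 0.941). When the share of reads outside annotated genes was also removed, r in experiment 2 fell to 0.51 (adjusted permutation p = 0.453). In experiment 2, Cnr1 and Mgll had r = −0.73 (adjusted permutation p = 0.162), and −0.81 with the share removed (adjusted permutation p = 0.042, rho = −0.72 with adjusted p = 0.318). Leaving out the 2 rats farthest from the median of Cnr1 gave −0.34 before and −0.67 after removal. No pair of experiment 1 passed. The highest were Cnr1 with Abhd6 and Daglb with Abhd12, both at r = 0.75 (adjusted permutation p = 0.082 each).

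**Figure D5:**
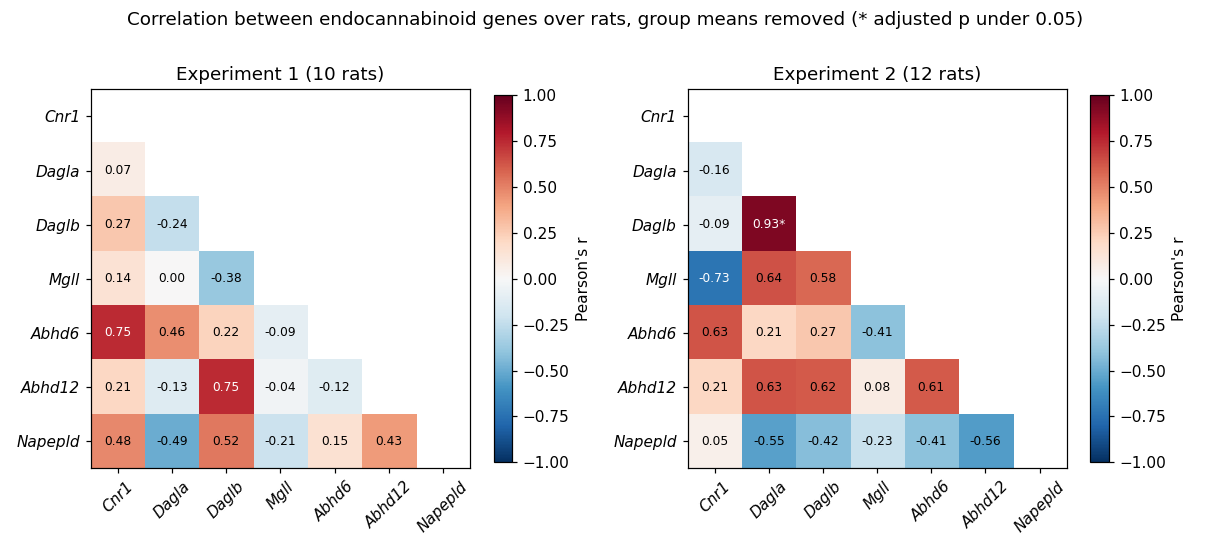
Pearson's r between each pair of 7 genes over the rats of an experiment, 10 in experiment 1 and 12 in experiment 2, on log2 CPM with group means removed (colour from −1, blue, to 1, red). The star marks the only pair with an adjusted permutation p under 0.05, Dagla with Daglb in experiment 2 at r = 0.93.

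Other genes of the pathway were followed through a pair of lists. A list of 30 other receptors, lipid enzymes and carriers had 27 genes in the files, of which 13 passed the filter in experiment 1 and 12 in experiment 2. None passed at an adjusted p under 0.05, where the lowest adjusted p in edgeR was 0.536 and 0.675. At an unadjusted p under 0.05, 1 was higher and 0 lower in each experiment, beside the backgrounds of 5.58% and 1.33%. The median log2 fold changes were −0.011 and 0.057, against −0.0012 and 0.00088 over all tested genes.

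Fabp7, a fatty acid binding protein that carries endocannabinoids and marks glia, was the gene of experiment 1. It had 392 to 508 normalized counts in water rats and 513 to 570 in EtOH rats, with no overlap, and means of 439 ± 43.8 and 543 ± 23.8 (SD, n = 5 each). Its log2 fold change of 0.30 (SE 0.074) did not pass the adjustment (edgeR adjusted p = 0.536, exact permutation p = 0.00794, the smallest possible). In experiment 2 the value was −0.33 (SE 0.25, edgeR adjusted p = 0.675), and −0.14 (SE 0.23) without water gavage rat 5. The neuroblast sum given above also did not overlap between the groups of experiment 1, by a narrow gap of 230.6 against 231.8 CPM. Its markers include Dcx and Dlx1, which the paper ranks among its top genes by p-value in that experiment. The sum is therefore not independent of earlier results of these data, and its part in the Fabp7 count was not tested. Naaa, an acid amidase that hydrolyses N-acylethanolamines, was the gene of experiment 2. Its means were 82.6 ± 15.9 in water gavage rats and 109 ± 17.4 in EtOH gavage rats (SD, n = 6 each), with ranges of 59.2 to 109 and 91.2 to 138 that overlapped. The log2 fold change was 0.40 (SE 0.18, edgeR adjusted p = 0.675), against −0.10 (SE 0.15) in experiment 1.

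The second list held 32 partners of CB1 signalling, such as G protein subunits, adenylyl cyclases and receptor kinases. In the files 30 were listed, of which 29 were tested in experiment 1 and 28 in experiment 2. None passed at an adjusted p under 0.05, with a lowest adjusted p in edgeR of 0.866 and 0.675. In experiment 1, 1 gene was higher and 1 lower at an unadjusted p under 0.05, and in experiment 2 there were 0. The backgrounds over all tested genes were 5.58% and 1.33%. The median log2 fold changes were 0.044 and −0.14. The adenylyl cyclase Adcy1 had a log2 fold change of 0.48 (SE 0.22) in experiment 1 and −0.42 (SE 0.38) in experiment 2. The value of experiment 1 was 0.77 (SE 0.15, edgeR adjusted p = 0.093) without water rat 5 and 0.32 (SE 0.19) without water rat 1. Camk2a, a kinase that phosphorylates and inhibits diacylglycerol lipase alpha, had the largest absolute value of the list in experiment 2, −0.64 (SE 0.36, edgeR adjusted p = 0.675), and 0.13 (SE 0.066) in experiment 1. With the share of reads outside genes as a covariate, the value of Camk2a in experiment 2 was −0.059 (SE 0.14).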

How the data were processed

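Gene expression was measured by RNA-seq of polyA+ RNA from the NAc of 22 rats, 1 library per rat. The authors aligned the reads to the rat genome (Rnor_6.0, rn6) and deposited raw counts of reads per gene without normalization. The submitters' processing notes name TopHat2 2.0.13, HTSeq 0.5.3p3 and 0.6.0, and DESeq2 1.6.2. The annotation release and the counting options are not given in the sources used here.

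The labels gave each rat its group and replicate number. The genes and the related lists were chosen with earlier results of these data known. Every gene of the set is named. From the related lists, genes with an unadjusted p under 0.05 and the gene with the largest absolute log2 fold change in each experiment are named, and the 3 genes closest to Cnr1 in each experiment. Genes that this rule names and the text leaves out are not reported here.

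Each experiment was fitted on its own with the quasi-likelihood test of edgeR 4.0.16 under R 4.3.3, scaled by TMM, after dropping genes whose base mean did not exceed the median over the files (43.6 in experiment 1, 66.4 in experiment 2). Benjamini-Hochberg adjustment covered all 8655 tested genes. Exact permutation tests, ratios and correlations used log2 CPM with a prior count of 2, and correlations used 100000 permutations within groups. The 5 summary lines were kept out of library sizes. Simulated counts, in which 200 genes were changed, were used to test the fits. The alternatives were DESeq2 1.42.0, DESeq2 size factors, other filters, the newer mode of the quasi-likelihood fit, other prior counts, a covariate for the share of reads outside genes, the replicate number as a block and each rat left out. Leaving out the 4 rats with the highest share, and all relations to that share, were chosen after seeing the data. The total count per library was 2962291 to 8765472 reads on genes, and the ratio tests were adjusted over 4 tests in place of the 6 planned.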

Additional observations from a re-analysis of the deposited data

Results flagged for a closer look

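Within each group, the highest and the lowest rat were compared with the rest by Dixon's test at the 95% level, over 44 sets of values. Chance flags about 1 in 20 sets, and 3 stood out. Cnr1 reached 5159.92 normalized counts in water gavage rat 5 of experiment 2, against 2712 in the next rat. Dagla fell to 375.628 normalized counts in EtOH rat 4 of experiment 1, where the next lowest EtOH rat had 476. The log2 ratio of Dagla to Mgll was −1.38758 in water gavage rat 1 of experiment 2, where the next lowest control had −0.086.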

How the results depend on the processing

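No gene of all tested was called at an adjusted p under 0.05 by edgeR or DESeq2 under any alternative run. The number of genes at an unadjusted p under 0.05 was 483 in experiment 1 and 115 in experiment 2, 632 and 315 with DESeq2, and 28 to 776 with each rat of experiment 2 left out (lowest without water gavage rat 2, highest without EtOH gavage rat 4).

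Signs turned for small and for larger values. Abhd12 in experiment 1 had a log2 fold change of −0.0028 with DESeq2, −0.0025 with DESeq2 size factors and −0.00091 with no filter. Mgll in experiment 2 had 0.0087, 0.0086 and 0.0088 in that order, and 0.24 when the share of reads outside genes was a covariate. That covariate also turned Dagla from −0.63 to 0.14, Daglb from −0.39 to 0.18, Adcy1 from −0.42 to 0.18 and Napepld from 0.097 to −0.17, and it moved Camk2a from −0.64 to −0.059. Without the 4 rats with the highest share, Cnr1 had 0.063 in place of −0.27, Abhd12 0.011 in place of −0.082, and 1 of the 6 genes, Dagla, was at an unadjusted p under 0.05. With the share removed, 1 pair of experiment 1 passed, Daglb with Abhd12. Of values for single genes or pairs, 431 kept their sign and call under the alternatives, 37 turned their sign and 1 lost its call.

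With each rat left out, log2 fold changes in experiment 1 ranged from −0.0079 to 0.027 for Abhd12, −0.025 to 0.051 for Abhd6, −0.047 to 0.059 for Dagla, −0.13 to 0.053 for Daglb, −0.040 to 0.074 for Mgll, 0.012 (without EtOH rat 3) to 0.21 (without water rat 5) for Cnr1 and −0.70 (without EtOH rat 3) to −0.31 for Napepld. In experiment 2 the ranges were −0.38 to 0.086 for Cnr1, −0.16 to 0.12 for Mgll, −0.039 to 0.21 for Napepld, −0.97 (without EtOH gavage rat 4) to −0.40 (without water gavage rat 2) for Dagla, −0.57 to −0.18 (without EtOH gavage rat 1) for Daglb, −0.13 to −0.041 (without water gavage rat 5) for Abhd6 and −0.11 to −0.040 (without EtOH gavage rat 1) for Abhd12. The ratio of Dagla to Daglb in experiment 1 ranged from −0.072 to 0.12, that of Dagla to Mgll from −0.11 to 0.034 and, in experiment 2, from −1.06 to −0.52, where the exact permutation p was 0.030 without water gavage rat 1. Correlated pairs numbered 0 to 1 in experiment 1 and 1 to 2 in experiment 2, the higher number each time without EtOH or EtOH gavage rat 4.

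Same-numbered rats were not consistently alike in expression, with correlations of −0.13 to 0.14 in experiment 1 and −0.76 to 0.84 in experiment 2. No rat of experiment 2 matched its own number best in both directions, while replicate 1 of experiment 1 did. The labels do not say whether the numbers reflect a pairing, and such correlations cannot decide it. With the replicate number as a block, 476 and 414 genes were at an unadjusted p under 0.05, and Mgll in experiment 2 had 0.0042. The difference of experiment 2 in the ratio of Dagla to Mgll, −0.78, had an unadjusted exact permutation p of 0.03125. That is the smallest p possible with these blocks.

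Napepld had 7 to 73 reads per library, which limits its precision. Requiring 10 counts in every library gave no value for Napepld in experiment 1, and alternatives for the ratio of Napepld to Faah were not run because Faah was listed at 0. The causes of the turned signs were not tested.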
